A study of Homo sapiens with 9 samples.

Results

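A set of 49 genes of epithelial junctions, of the epithelial-mesenchymal transition (EMT) and of the extracellular matrix was read in a human bile duct cancer line with BAP1 or MBD5 knocked down. Of these, 21 were epithelial genes and 28 were mesenchymal or matrix genes. A member was any probe set whose only gene symbol, current or older, was a listed name: 46 of the 49 genes had one, with 158 probe sets of the 49395 on the arrays. The study covered 9 Affymetrix arrays of HCCC-9810, an established cholangiocarcinoma line: 3 of cells transfected with BAP1 siRNAs (si-BAP1), 3 of cells transfected with MBD5 siRNAs (si-MBD5) and 3 of cells with a control RNA (si-Control). The control is an siRNA by the sample titles and an shRNA by other labels, which is not settled. All groups came from the same line with no stated genotype change, time or dose, and the sources used here give no siRNA sequences. By the labels each group holds 3 biological replicates, and p-values cover the spread between these samples of 1 line only. BAP1 encodes a nuclear deubiquitinase of histone H2A and MBD5 a methyl-CpG-binding domain protein.

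Epithelial cells are held in a sheet by tight junctions of claudins and occludin, adherens junctions of E-cadherin with its catenins, and desmosomes of desmogleins, desmocollins and plakophilins. In EMT, repressors of the SNAI, ZEB and TWIST families bind E-box sequences in promoters of such genes, transforming growth factor beta (TGF-beta) often sets the repressors off, and cells gain N-cadherin, vimentin and matrix products. Bile duct cells make the epithelial set in health, and cholangiocarcinoma is known for a dense collagen-rich stroma made largely by its fibroblasts.

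Values are deposited MAS5 intensities on a linear scale. A log2 fold change is a difference of group means of log2(intensity + 16), given with its standard error (SE) and its limma adjusted p over 12431 genes, and a gene was called at an adjusted p under 0.05. The brightest probe set stood for its gene, and a probe set had to average over 25.5, the 40th percentile. Of the 46 genes, 40 passed that filter, 15 epithelial and 25 mesenchymal or matrix. The 6 below it were CDH1, CLDN1, OCLN, GRHL2, MMP2 and MMP7, and CTNND1, F11R and LAMA3, without a probe set of their own symbol alone, are not analysed here. Pearson's r over probe sets was 0.998 to 0.999 within groups (9 pairs) and 0.996 to 0.998 between groups (27 pairs). The brighter MBD5 probe set, well below the filter, read 6.20, 6.20 and 6.11 in si-MBD5 arrays against 7.16, 7.06 and 6.90 in si-Control arrays, with a log2 fold change of -0.055 that was not called (adjusted p = 0.308 over all probe sets); BAP1 is not analysed here. Of 9 cholangiocyte markers measured, KRT7, KRT8, KRT18 and SOX9 passed the filter, while KRT19, EPCAM, SPP1, CFTR and CLDN10 lay below it. The ratio of the 3′ to the 5′ control probe sets of ACTB, a sign of RNA quality, averaged 11.1 ± 0.310 in si-BAP1 and 12.3 ± 0.715 in si-MBD5, against 12.2 ± 0.520 in si-Control (SD, n = 3 each; two-sided exact permutation p = 0.1, the smallest possible, and p = 0.8). The same ratio for GAPDH ran from 1.03 to 1.09 over the 9 arrays. The part of the ACTB ratio in the si-BAP1 values was not tested.

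Of the classical cadherins of the set, CDH2 and CDH3 were not called in either knockdown. CDH1, the E-cadherin of adherens junctions, read 8.46, 7.55 and 8.57 in si-BAP1 arrays and 7.15, 7.30 and 7.42 in si-MBD5 arrays, against 8.62, 7.45 and 7.26 in si-Control arrays, all below the filter, so it was not tested. N-cadherin, CDH2, read 386, 379 and 390.2 in si-BAP1 arrays and 367, 394 and 379 in si-MBD5 arrays, against 386, 361 and 379 in si-Control arrays. The groups overlapped, and CDH2 was not called, with log2 fold changes of 0.036 (SE 0.041, adjusted p = 0.611) in si-BAP1 and 0.018 (SE 0.041, adjusted p = 0.827) in si-MBD5. Among the other adherens junction genes, the P-cadherin CDH3 and the beta-catenin CTNNB1 had log2 fold changes of 0.032 and 0.045 in si-BAP1 and 0.0099 and 0.035 in si-MBD5, none called on the brightest probe set. Over all probe sets 1 of the 7 CTNNB1 probe sets, a dimmer one, was called higher in si-BAP1. The alpha-catenin CTNNA1, which ties the cadherin complex to actin, averaged 1580.2 ± 24.0 in si-BAP1 and 1502 ± 68.2 in si-MBD5, against 1459.8 ± 53.1 in si-Control (SD, n = 3 each). Its log2 fold change of 0.11 (SE 0.038, adjusted p = 0.0458) in si-BAP1 was called over genes. Over all probe sets 1 of its 6 passed, and that was a dimmer one. The gene call was lost under 11 of 20 alternatives, among them leaving out any of the si-BAP1 arrays, si-Control replicate 1 or 3, or si-MBD5 replicate 2 (adjusted p from 0.0508 to 0.182).

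With si-BAP1, 13 of 40 members were called against si-Control, 32.5%, beside 23.5% of all genes tested. The arrays did not overlap for 16 of the 40, beside 37.5% of all genes. Of the 13, 9 rose (beside 12.4% of all genes) and 4 fell (beside 11.1%). The epithelial genes gave 3 of 15 called, 2 higher and 1 lower, and the mesenchymal and matrix genes 10 of 25, 7 higher and 3 lower. With si-MBD5, 8 of 40 members were called, 20%, beside 16.3% of all genes. Of these 4 rose (beside 7.3%) and 4 fell (beside 8.99%), and 14 of the 40 did not overlap si-Control, beside 30.4%. Of the epithelial genes 1 of 15 fell, and of the mesenchymal and matrix genes 7 of 25 were called, 4 higher and 3 lower. The median log2 fold change was 0.045 for epithelial and 0.015 for mesenchymal and matrix genes in si-BAP1, and 0.0082 and 0.030 in si-MBD5, against 0.00048 and 9.5e-05 for all genes. Both knockdowns were set against the same 3 si-Control arrays, so their values for a gene are given side by side and are not independent of each other.

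**Figure D1:**
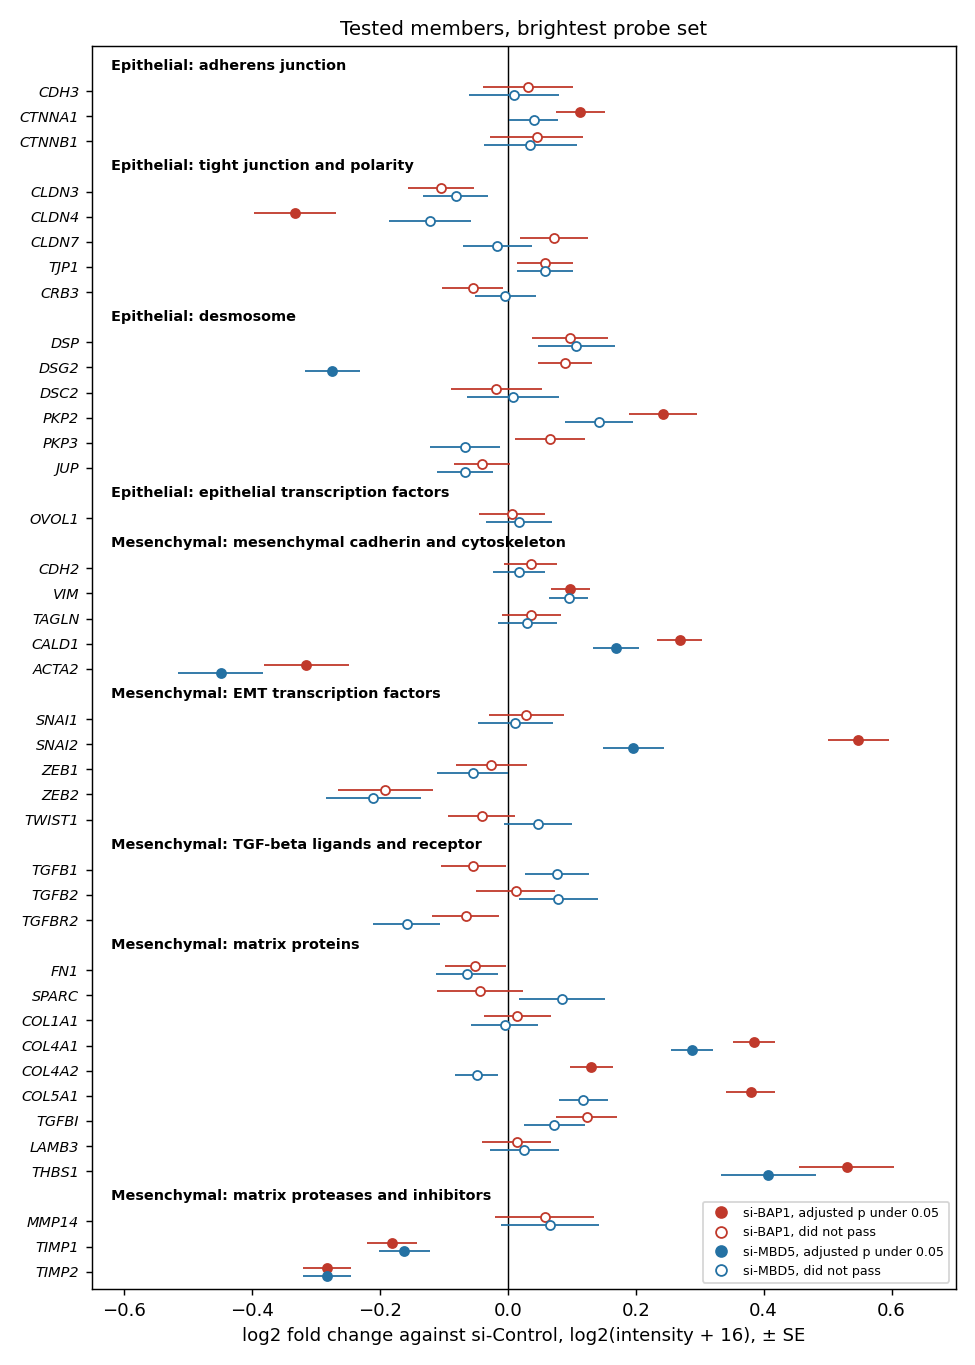
Log2 fold change against si-Control (horizontal axis, with SE) of the 40 tested members in si-BAP1 and si-MBD5 cells, grouped by role, with filled points for calls at an adjusted p under 0.05. The called members lie between -0.45 (ACTA2 in si-MBD5) and 0.55 (SNAI2 in si-BAP1), and the filled epithelial points are CTNNA1, CLDN4, DSG2 and PKP2.

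Among the tight junction genes, CLDN4 was lower in si-BAP1 cells. CLDN4, a claudin that limits ion passage between cells, read 144, 123 and 140.1 in si-BAP1 arrays and 167, 152 and 159 in si-MBD5 arrays, against 189.9, 171 and 163 in si-Control arrays. Every si-BAP1 array lay below every si-Control array, while the si-MBD5 arrays overlapped si-Control. Its log2 fold change was -0.33 (SE 0.064, adjusted p = 0.00184) in si-BAP1 and -0.12 (SE 0.064, adjusted p = 0.239) in si-MBD5. The dimmer CLDN4 probe sets gave larger falls: -0.55 and -0.60 in si-BAP1 and -0.31 and -0.47 in si-MBD5, all of them called over 27188 probe sets. On the dimmest, intensities were 65.9, 66.0 and 67.9 in si-BAP1 and 70.4, 79.5 and 74.7 in si-MBD5, against 112.1, 108.1 and 108.1 in si-Control, with no overlap for either knockdown. All CLDN4 probe sets are of a type that may also bind related transcripts. In bulk RNA such a fall cannot be told apart as fewer cells with the transcript or less transcript per cell. The other tight junction and polarity genes tested, CLDN3, CLDN7, the scaffold TJP1 and the polarity gene CRB3, were not called on their brightest probe set, with log2 fold changes from -0.10 to 0.072 in si-BAP1 and from -0.081 to 0.058 in si-MBD5.

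The sequence upstream of CLDN4 is shown because this was the only called fall among the epithelial genes in si-BAP1 cells. It is the 250 bases before the RefSeq start (GRCh38.p14, chr7:73830746-73830995, plus strand), 5′ to 3′, and capitals mark TGANTCA, the element that AP-1 factors bind, searched on both strands and found 2 times.
CLDN4: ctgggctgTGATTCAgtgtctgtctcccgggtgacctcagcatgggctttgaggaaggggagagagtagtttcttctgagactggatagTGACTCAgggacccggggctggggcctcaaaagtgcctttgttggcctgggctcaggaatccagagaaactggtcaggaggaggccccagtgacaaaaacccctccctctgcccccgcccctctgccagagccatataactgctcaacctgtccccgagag
TGANTCA occurred in the same window of 1 of 13 epithelial members and 5 of 21 mesenchymal and matrix members with a promoter entry, and of 8.06% of 27305 genes. A match describes letters and not a bound site.

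Of 6 desmosome genes, 1 rose in si-BAP1 (beside 12.4% of all genes) and another fell in si-MBD5 (beside 8.99%). DSG2, the desmosomal cadherin of simple epithelia, read 629, 666 and 625 in si-BAP1 arrays and 493, 504 and 483 in si-MBD5 arrays, against 582, 585 and 635 in si-Control arrays. The si-MBD5 arrays lay below all others, and the si-BAP1 arrays overlapped si-Control. Its log2 fold change was 0.090 (SE 0.043, adjusted p = 0.161) in si-BAP1 and -0.27 (SE 0.043, adjusted p = 7.43e-04) in si-MBD5, where 2 of its 3 probe sets were called lower. Without si-Control replicate 3 the si-BAP1 value was 0.13 and called (adjusted p = 0.0465). PKP2, a plakophilin that links desmosomal cadherins to keratin filaments, averaged 46.1 ± 0.694 in si-BAP1 and 42.0 ± 3.54 in si-MBD5, against 36.5 ± 1.39 in si-Control (SD, n = 3 each). It rose in si-BAP1, with 0.24 (SE 0.053, adjusted p = 0.00421) and both probe sets called, and had 0.14 (SE 0.053, adjusted p = 0.0896) in si-MBD5, which was called without si-MBD5 replicate 1 (0.19, adjusted p = 0.0373). DSP, the keratin linker, DSC2, PKP3 and the plakoglobin JUP were not called on the brightest probe set, with log2 fold changes from -0.040 to 0.097 in si-BAP1 and from -0.067 to 0.11 in si-MBD5. The dimmer DSP probe set was called higher in si-BAP1, 0.18 (limma adjusted p = 0.00220 over all probe sets). OVOL1, a transcription factor that sustains the epithelial state, had 0.0069 and 0.017, not called.

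The 250 bases upstream of DSG2 (GRCh38.p14, chr18:31497927-31498176, plus strand, RefSeq) are shown for their E-boxes, the letters CAGGTG on either strand that SNAI and ZEB repressors are known to bind, in capitals, 5′ to 3′.
DSG2: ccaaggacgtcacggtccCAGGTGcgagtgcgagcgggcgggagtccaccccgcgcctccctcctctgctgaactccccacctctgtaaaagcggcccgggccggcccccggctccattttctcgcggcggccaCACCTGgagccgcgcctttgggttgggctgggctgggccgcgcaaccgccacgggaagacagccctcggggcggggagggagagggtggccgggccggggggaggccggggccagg
Of the 49 genes, 34 had an entry in the RefSeq promoter table, 13 epithelial and 21 mesenchymal or matrix. CAGGTG or its reverse complement was present for 8 of the 13 epithelial genes, 61.5%: CLDN7, CRB3, DSC2, DSG2, DSP, JUP, OCLN and TJP1. It was present for 3 of 21 mesenchymal and matrix genes, 14.3%, which were LAMA3, LAMB3 and ZEB1, and for 20.6% of all 27305 genes. LAMA3 and LAMB3 were placed with the matrix genes. An alternative counted them as epithelial for the calls, but the shares with these letters were not recounted. Of the 8 epithelial genes 7 were tested, with 0 called in si-BAP1 and 1 called lower, DSG2, in si-MBD5. Among all genes tested, 23.5% were called in si-BAP1 and 16.3% in si-MBD5. The CLDN4 window did not hold these letters.

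SNAI2 was the EMT transcription factor that rose. SNAI2, also called Slug, represses junction genes, and read 218, 232 and 234 in si-BAP1 arrays and 166, 180.3 and 179 in si-MBD5 arrays, against 146, 158 and 149 in si-Control arrays. The 3 groups did not overlap, with si-BAP1 highest and si-Control lowest. Its log2 fold change was 0.55 (SE 0.048, adjusted p = 3.05e-06) in si-BAP1 and 0.20 (SE 0.048, adjusted p = 0.0133) in si-MBD5, on its only probe set. Without si-Control replicate 1 the si-MBD5 value was 0.18 and no longer called (adjusted p = 0.0538). ZEB1, another repressor of CDH1, read 448, 452 and 448 in si-BAP1 arrays and 419, 493 and 412 in si-MBD5 arrays, against 466, 454 and 454 in si-Control arrays. The si-BAP1 arrays lay just below all si-Control arrays and the si-MBD5 arrays overlapped them, with log2 fold changes of -0.026 (adjusted p = 0.805) in si-BAP1 and -0.055 (adjusted p = 0.577) in si-MBD5; without si-MBD5 replicate 2 the si-MBD5 value was -0.13 and called (adjusted p = 0.0344). ZEB2 had -0.19 (adjusted p = 0.0828) and -0.21 (adjusted p = 0.0739), and SNAI1 and TWIST1 lay between -0.041 and 0.048 over both knockdowns, none of them called. The TGF-beta ligands TGFB1 and TGFB2 and the receptor TGFBR2 were not called either; the value nearest the threshold was TGFBR2 in si-MBD5, -0.16 (adjusted p = 0.0579).

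**Figure D2:**
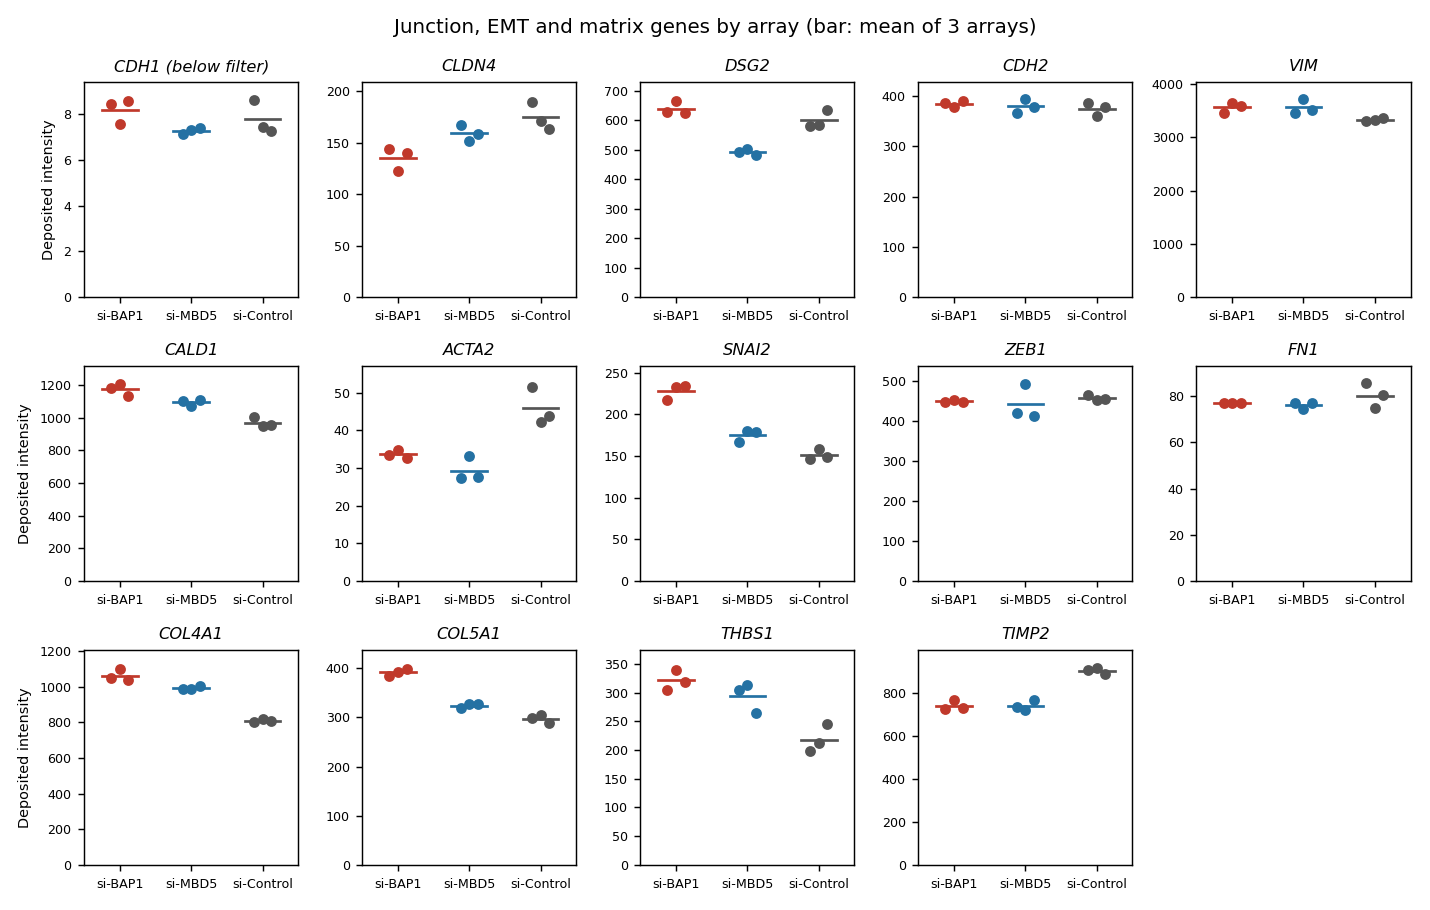
Deposited intensity (vertical axes, own scale per gene) on each of the 9 arrays for 14 members described array by array, with points for arrays and lines for group means. In SNAI2 and COL4A1 the groups are stepped from si-BAP1 through si-MBD5 to si-Control, whereas the groups of CDH2 and FN1 overlap.

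The cytoskeletal genes of the mesenchymal state went in opposite directions. CALD1, the actin- and myosin-binding caldesmon, read 1179.6, 1205 and 1132 in si-BAP1 arrays and 1103, 1068 and 1106 in si-MBD5 arrays, against 1003, 951 and 955 in si-Control arrays. Both knockdowns lay above all si-Control arrays, and its log2 fold change was 0.27 (SE 0.035, adjusted p = 9.40e-05) in si-BAP1 and 0.17 (SE 0.035, adjusted p = 0.00523) in si-MBD5. Of its 10 probe sets, 8 were called higher in si-BAP1 and 5 in si-MBD5. VIM, the intermediate filament vimentin, read 3461, 3651 and 3593 in si-BAP1 arrays and 3461, 3714 and 3511 in si-MBD5 arrays, against 3305, 3325 and 3364 in si-Control arrays. On this brightest probe set the groups did not overlap si-Control but the shifts were small. They were 0.098 (SE 0.031, adjusted p = 0.0327) in si-BAP1 and 0.095 (SE 0.031, adjusted p = 0.0503) in si-MBD5. That si-BAP1 call of VIM was lost without si-BAP1 replicate 2 or 3 or any of the si-Control arrays. The adjusted p then ran from 0.0505 to 0.129. The si-MBD5 value was called without si-MBD5 replicate 1 (0.12, adjusted p = 0.0453). The dimmer VIM probe set did not overlap si-Control either. It was called higher over all probe sets in both knockdowns. Its values were 0.14 (adjusted p = 0.00164) in si-BAP1 and 0.13 (adjusted p = 0.00433) in si-MBD5. Of the 2 VIM probe sets, 2 were thus called higher in si-BAP1 and 1 in si-MBD5. ACTA2, the smooth muscle actin of myofibroblasts, read 33.5, 34.7 and 32.7 in si-BAP1 arrays and 27.3, 33.1 and 27.5 in si-MBD5 arrays, against 51.6, 42.1 and 43.8 in si-Control arrays. It was lower on every array of both knockdowns, with -0.31 (SE 0.066, adjusted p = 0.00336) in si-BAP1 and -0.45 (SE 0.066, adjusted p = 5.16e-04) in si-MBD5. In RefSeq ACTA2 overlaps FAS, a death receptor gene on the same chromosome, whose intensity averaged 42.1 ± 6.04 in si-BAP1 and 42.2 ± 3.58 in si-MBD5, against 89.5 ± 4.65 in si-Control, and the part of this overlap in the ACTA2 values was not tested. TAGLN, the actin-bundling transgelin, had 0.037 and 0.030, not called.

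COL4A1, COL4A2 and COL5A1 were the collagen genes of the set that rose in si-BAP1 cells. COL1A1 was not called, and its means of 29.9 in si-BAP1, 29.2 in si-MBD5 and 29.4 in si-Control lay little above the filter. COL4A1, an alpha chain of the type IV collagen network, read 1048, 1101 and 1036 in si-BAP1 arrays and 986, 986 and 1003 in si-MBD5 arrays, against 801, 819 and 807 in si-Control arrays. Both knockdowns lay above si-Control without overlap, and its log2 fold change was 0.38 (SE 0.033, adjusted p = 2.72e-06) in si-BAP1 and 0.29 (SE 0.033, adjusted p = 8.02e-05) in si-MBD5. Of its 3 probe sets all were called in si-BAP1 and 1 in si-MBD5, where the value was 0.10 (adjusted p = 0.144) once probe sets that may bind related transcripts were left out. COL4A2, its partner chain, read 1840.3, 1867 and 1884 in si-BAP1 arrays and 1568, 1700.4 and 1668 in si-MBD5 arrays, against 1708, 1727 and 1669 in si-Control arrays. It rose in si-BAP1 with 0.13 (SE 0.033, adjusted p = 0.0115) and had -0.049 (SE 0.033, adjusted p = 0.385) in si-MBD5, whose arrays overlapped si-Control; leaving out the same kind of probe sets gave 0.047 in si-BAP1 (adjusted p = 0.507). The difference of log2 COL4A1 and log2 COL4A2 was higher than in si-Control by 0.25 in si-BAP1 and by 0.34 in si-MBD5, each with a two-sided exact permutation p of 0.1, the smallest that 3 against 3 arrays allow.

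COL4A1 and COL4A2 start head to head, and the whole segment between their RefSeq start sites is shown because the genes share it and did not shift by the same amount. It spans chr13:110307158-110307283 (GRCh38.p14, plus strand, COL4A2 running to the right), 126 bases, 5′ to 3′, with the CCAAT box in capitals.
COL4A1-COL4A2 segment: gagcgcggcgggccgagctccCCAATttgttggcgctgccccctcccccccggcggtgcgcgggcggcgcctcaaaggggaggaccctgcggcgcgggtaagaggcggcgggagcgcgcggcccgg
The letters CCAAT, on either strand, were present in the 250 bases upstream of 10 of 21 mesenchymal and matrix members and 4 of 13 epithelial members, and of 37.0% of the 27305 genes. Elsewhere the segment held 1 GC box, GGGCGG on either strand. GC boxes were present in the window of 17 of 21 mesenchymal and matrix members and 13 of 13 epithelial members, and of 46.2% of all genes.

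COL5A1, an alpha chain of the type V collagen that regulates fibril width, read 384, 393 and 399 in si-BAP1 arrays and 318, 327 and 327 in si-MBD5 arrays, against 299, 305 and 288 in si-Control arrays. The 3 groups did not overlap; its log2 fold change was 0.38 (SE 0.038, adjusted p = 1.03e-05) in si-BAP1, where all 4 probe sets were called, and 0.12 (SE 0.038, adjusted p = 0.0516) in si-MBD5, where 1 was. THBS1, the matricellular thrombospondin that can activate latent TGF-beta, read 305, 339.6 and 319 in si-BAP1 arrays and 305, 313 and 265 in si-MBD5 arrays, against 198, 212 and 245 in si-Control arrays. Both knockdowns exceeded every si-Control array, with 0.53 (SE 0.074, adjusted p = 1.53e-04) in si-BAP1 and 0.41 (SE 0.074, adjusted p = 0.00218) in si-MBD5. Of the 3 THBS1 probe sets, 2 were called higher in each knockdown, and the lowest values were 0.14 in si-BAP1 and 0.071 in si-MBD5. FN1, the fibronectin of EMT matrix, read 76.9, 76.9 and 76.9 in si-BAP1 arrays and 76.9, 74.5 and 76.9 in si-MBD5 arrays, against 85.6, 75.0 and 80.4 in si-Control arrays. The same value stood on 5 of the 9 arrays, and FN1 was not called, with -0.051 (adjusted p = 0.522) and -0.064 (adjusted p = 0.434). COL1A1, SPARC, TGFBI and LAMB3 encode a fibrillar collagen, a collagen-binding protein, a TGF-beta-induced adhesion protein and a laminin chain. Their log2 fold changes ran from -0.044 to 0.12 in si-BAP1 and from -0.0049 to 0.085 in si-MBD5, none called on the brightest probe set. For COL1A1, SPARC and LAMB3 the group means ran only from 29.2 (COL1A1 in si-MBD5) to 37.4 (LAMB3 in si-MBD5), not far above the filter. At such levels a missing call is not by itself a sign of an expressed and unchanged gene.

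Fibroblasts make most of the collagen in tumours, and 9 of 10 fibroblast markers were below the filter: PDGFRA, LUM, DCN, THY1, FAP, COL1A2, COL3A1, COL6A3 and POSTN. The remaining marker, PDGFRB, rose by a log2 fold change of 0.16 in si-BAP1 and 0.24 in si-MBD5. The summed intensity of the 10 markers was 178 to 196 in si-BAP1 and 175 to 193 in si-MBD5, against 164 to 167 in si-Control. All arrays were of 1 cell line and 9 of the markers lay below the filter, so the sum is no measure of fibroblast content. Its relation to the collagen values was not tested. Endothelial, hepatocyte and immune markers had 5 of 8, 3 of 7 and 2 of 7 above the filter. None was called in either knockdown, beside 23.5% of all genes called in si-BAP1 and 16.3% in si-MBD5. The 8 endothelial markers together summed to only 210 to 237 in si-Control. Passing the filter is therefore not by itself a sign that such a marker was expressed.

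The 250 bases upstream of THBS1 (GRCh38.p14, chr15:39580829-39581078, plus strand, RefSeq) are shown for GGAATG, an element of TEAD factors, in capitals, 5′ to 3′, searched on both strands; THBS1 is a known target of the TEAD partner YAP.
THBS1: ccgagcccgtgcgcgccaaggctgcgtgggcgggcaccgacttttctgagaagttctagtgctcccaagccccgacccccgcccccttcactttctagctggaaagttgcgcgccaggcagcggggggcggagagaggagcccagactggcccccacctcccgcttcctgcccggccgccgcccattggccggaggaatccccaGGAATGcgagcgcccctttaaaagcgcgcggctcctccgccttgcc
GGAATG was present upstream of 5 of 21 mesenchymal and matrix members (ACTA2, CALD1, SPARC, TGFB2 and THBS1) and 0 of 13 epithelial members, and of 14.3% of all 27305 genes. Of those 5, CALD1 and THBS1 were called higher and ACTA2 lower in both knockdowns, beside 23.5% of all genes called in si-BAP1 and 16.3% in si-MBD5.

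Both listed inhibitors of matrix proteases were called lower in both knockdowns on their brightest probe sets. TIMP2, which inhibits metalloproteinases and also takes part in activating pro-MMP2 on the cell surface, read 723, 767 and 727 in si-BAP1 arrays and 732, 718 and 767 in si-MBD5 arrays, against 907, 914 and 885 in si-Control arrays. No si-BAP1 or si-MBD5 array reached si-Control, and its log2 fold change was -0.28 (SE 0.037, adjusted p = 9.88e-05) in si-BAP1 and -0.28 (SE 0.037, adjusted p = 2.32e-04) in si-MBD5, with both of its probe sets called. TIMP1 averaged 1194 ± 11.4 in si-BAP1 and 1211 ± 50.1 in si-MBD5, against 1357 ± 61.0 in si-Control (SD, n = 3 each), with log2 fold changes of -0.18 (SE 0.039, adjusted p = 0.00428) in si-BAP1 and -0.16 (SE 0.039, adjusted p = 0.0132) in si-MBD5. The si-MBD5 call was lost without si-MBD5 replicate 1 or si-Control replicate 1 or 2 (adjusted p from 0.0620 to 0.0637), and with the mean of probe sets the log2 fold change was -0.14 in si-BAP1 (adjusted p = 0.0543) and -0.093 in si-MBD5 (adjusted p = 0.251). Of the 3 TIMP1 probe sets, 2 were called lower in si-BAP1 and 1 in si-MBD5, where the highest value was 0.027. The membrane-anchored protease MMP14 had 0.058 and 0.067, not called, and MMP2 and MMP7 lay below the filter.

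**Figure D3:**
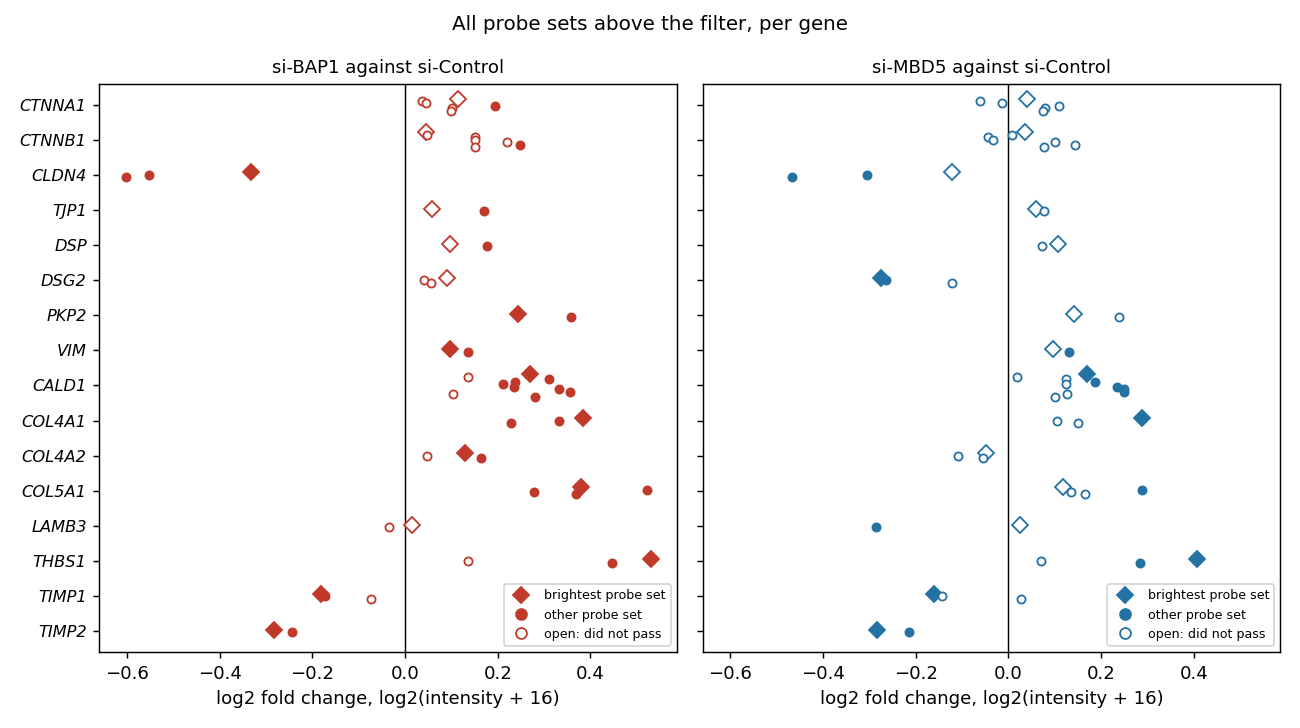
Log2 fold change against si-Control (horizontal axis) of every probe set above the filter for 16 members with several probe sets and a call, in si-BAP1 and si-MBD5 cells, with diamonds for the brightest probe set and filled symbols for calls over 27188 probe sets. The 3 CLDN4 probe sets all lie below 0 and the 10 CALD1 probe sets all above 0, while LAMB3 has only its dimmer probe set called, in si-MBD5.

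Read probe set by probe set, 36 of the 104 member probe sets above the filter were called in si-BAP1, beside 20.5% of all 27188, and 20 in si-MBD5, beside 12.9%. No member had probe sets called in opposite directions. The dimmer LAMB3 probe set fell in si-MBD5, -0.29, while the brightest stood at 0.026. In si-BAP1 a dimmer probe set was called higher although the brightest was not for DSP (0.18), TJP1 (0.17), CTNNB1 (0.25) and CTNNA1 (0.20). The brightest CTNNA1 probe set was called over genes but not over all probe sets.

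Set directly against each other, si-BAP1 and si-MBD5 cells differed in 4 of 40 members, 10%, beside 9.98% of all genes, and all 4 were higher in si-BAP1 (beside 5.76% of all genes higher and 4.22% lower). The arrays did not overlap for 11 of the 40, beside 25% of all genes, and 13 of the 104 member probe sets were called, beside 7.82% of all probe sets. SNAI2 averaged 228 ± 9.11 in si-BAP1 and 175 ± 7.73 in si-MBD5, a log2 difference of 0.35 (SE 0.048, adjusted p = 4.39e-04). DSG2 averaged 639.8 ± 22.6 in si-BAP1 and 493 ± 10.4 in si-MBD5, a difference of 0.36 (SE 0.043, adjusted p = 1.23e-04), with all 3 probe sets called. The collagen chains differed by 0.26 (SE 0.038, adjusted p = 7.06e-04) for COL5A1 and by 0.18 (SE 0.033, adjusted p = 0.00405) for COL4A2. COL4A1, THBS1 and CALD1 were higher in both knockdowns and their direct difference did not pass, at 0.096 (adjusted p = 0.0900), 0.12 (adjusted p = 0.362) and 0.10 (adjusted p = 0.101). For CLDN4 the direct difference was -0.21 (adjusted p = 0.0552) on the brightest probe set, and 1 of its 3 probe sets was called lower in si-BAP1.

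Related genes outside the 49 were read from lists of the same pathways. Of 23 other junction and polarity genes tested, 4 rose and 5 fell in si-BAP1, 39.1%, beside 23.5% of all genes called. In si-MBD5, 5 rose and 6 fell, 47.8%, beside 16.3%. PARD6B, an adaptor of the apical polarity complex, fell in both, with -0.64 (SE 0.088, adjusted p = 1.30e-04) in si-BAP1 and -0.40 (SE 0.088, adjusted p = 0.00726) in si-MBD5. SHROOM3, an organizer of apical actin, also fell in both (-0.29 in si-BAP1 and -0.15 in si-MBD5). The polarity scaffold SCRIB fell in si-MBD5, -0.24 (adjusted p = 0.00518), and had -0.13 (adjusted p = 0.0835) in si-BAP1. Higher in both knockdowns were the tricellular junction gene LSR (0.36 in si-BAP1 and 0.18 in si-MBD5), the desmosomal PERP (0.35 in si-BAP1 and 0.23 in si-MBD5), PKP4 (0.33 in si-BAP1 and 0.29 in si-MBD5) and the polarity scaffold PALS1 (0.27 in si-BAP1 and 0.29 in si-MBD5). Of 16 other genes of the epithelial program, 3 rose and 1 fell in si-BAP1, 25%, beside 23.5% of all genes. In si-MBD5, 2 rose and 1 fell, 18.8%, beside 16.3%. CD24, a surface glycoprotein, rose in both (0.13 in si-BAP1 and 0.31 in si-MBD5), as did the epithelial sorting adaptor AP1M2 (0.27 in si-BAP1 and 0.25 in si-MBD5), and the keratin KRT7 fell in both (-0.15 in si-BAP1 and -0.19 in si-MBD5). The keratin KRT8 rose in si-BAP1, 0.31 (adjusted p = 2.27e-04), and had 0.057 (adjusted p = 0.464) in si-MBD5.

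Of 24 other TGF-beta pathway genes, 5 rose and 3 fell in si-BAP1, 33.3%, beside 23.5% of all genes called. In si-MBD5, 3 rose and 5 fell, 33.3%, beside 16.3%. Those that rose in both were CCN2, a matricellular growth factor (0.62 in si-BAP1 and 0.37 in si-MBD5), LTBP1, which holds latent TGF-beta in the matrix (0.54 in si-BAP1 and 0.52 in si-MBD5), and the receptor TGFBR1 (0.25 in si-BAP1 and 0.41 in si-MBD5). The activin receptor ACVR1B fell in both (-0.35 in si-BAP1 and -0.18 in si-MBD5). The corepressor TGIF2 fell in si-BAP1, -0.27 (adjusted p = 3.04e-04), and had 0.095 (adjusted p = 0.154) in si-MBD5. TGIF1, a related corepressor, had -0.021 (adjusted p = 0.840) in si-BAP1 and fell in si-MBD5, -0.25 (adjusted p = 0.00509). The inhibitory SMAD6 had -0.081 (adjusted p = 0.469) in si-BAP1 and fell in si-MBD5, -0.24 (adjusted p = 0.0271).

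Of 41 other matrix and mesenchymal genes, 4 rose and 8 fell in si-BAP1, 29.3%, beside 23.5% of all genes called. In si-MBD5, 5 rose and 8 fell, 31.7%, beside 16.3%. The collagen prolyl hydroxylase P4HA1 (0.36 in si-BAP1 and 0.19 in si-MBD5), the collagen cross-linking enzyme LOX (0.29 in si-BAP1 and 0.38 in si-MBD5) and the actin bundler FSCN1 (0.32 in si-BAP1 and 0.27 in si-MBD5) rose in both. The laminin chain LAMC1 (-0.57 in si-BAP1 and -0.19 in si-MBD5), the heparan sulfate proteoglycan AGRN (-0.25 in si-BAP1 and -0.38 in si-MBD5) and COL7A1, the anchoring fibril collagen (-0.32 in si-BAP1 and -0.42 in si-MBD5), fell in both. Of 19 other metalloproteinases and inhibitors, 3 rose and 3 fell in si-BAP1, 31.6%, beside 23.5% of all genes. In si-MBD5, 3 rose and 2 fell, 26.3%, beside 16.3%. The proteases ADAMTS1 (0.59 in si-BAP1 and 0.36 in si-MBD5), ADAM15 (0.54 in si-BAP1 and 0.49 in si-MBD5) and MMP24 (0.30 in si-BAP1 and 0.38 in si-MBD5) rose in both. ADAM17, the sheddase of TNF (-0.38 in si-BAP1 and -0.21 in si-MBD5), and the protease ADAM9 (-0.23 in si-BAP1 and -0.26 in si-MBD5) fell in both. The inhibitor TIMP4 fell in si-BAP1, -0.32 (adjusted p = 0.0187), and had -0.069 (adjusted p = 0.675) in si-MBD5. Set directly against each other, the knockdowns differed in 3 of the 23 junction and polarity genes, 2 of the 16 epithelial program genes, 5 of the 24 TGF-beta pathway genes, 4 of the 41 matrix and mesenchymal genes and 1 of the 19 metalloproteinases and inhibitors, beside 9.98% of all genes.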

How the data were processed

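Affymetrix arrays measured total RNA, made into biotin-labelled cRNA per the labels' protocols. The deposited table holds linear intensity, made with MAS5 per the submitters' processing notes; its version and the scaling are not given in the sources used here. Array medians ran from 36.9 to 38.2, and no further scaling was applied. Log2 values were computed here from the deposited intensity after adding 16. Probe sets with 1 symbol and a mean over the 40th percentile entered limma 3.58.1 (R 4.3.3; empirical Bayes with an intensity trend; 3 group means, 9 arrays, 6 residual degrees of freedom), fitted to the brightest probe set of 12431 genes and to all 27188 probe sets, with Benjamini-Hochberg adjustment and a threshold of 0.05. The number of arrays limits the precision: the median SE was 0.051 log2. The procedure was tested on simulated data.

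The members and the other gene lists were chosen with earlier results of these data known, and the motifs after the data were seen. Members given array by array were CDH1, CDH2, VIM, FN1, ZEB1, SNAI2 and every member called with at least 0.25 log2 and separated arrays; COL4A2 was added after its values were seen. Of each other list, up to 2 rises and 2 falls per knockdown were named. Alternatives were constants of 1 and 64, quantile and median scaling, no filter or the 60th percentile, averaged probe sets, removal of the _x_at and _s_at types, a replicate block, no trend, 2 groups only, other memberships and leaving out each array. Figures used matplotlib 3.10.9 in Python 3.11.15. Probe sets with no symbol or more than 1 were left out.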

Additional observations from a re-analysis of the deposited data

Results flagged for a closer look

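The direct comparison of si-BAP1 with si-MBD5 cells, which uses no si-Control array in the contrast, showed members whose response differed between the knockdowns (limma, adjusted over 12431 genes). The log2 difference was 0.36 for DSG2 (adjusted p = 1.23e-04), 0.35 for SNAI2 (adjusted p = 4.39e-04), 0.26 for COL5A1 (adjusted p = 7.06e-04) and 0.18 for COL4A2 (adjusted p = 0.00405). Each was higher on all 3 si-BAP1 arrays than on any si-MBD5 array. DSG2 was called lower in si-MBD5 and not called in si-BAP1, and SNAI2 was called higher in both. COL5A1 and COL4A2 were called higher in si-BAP1 and not called in si-MBD5. For COL5A1 the si-MBD5 value, 0.12, fell just short of a call (limma adjusted p = 0.0516), with every si-MBD5 array above si-Control. It was called under 4 of 20 alternatives. The 4 genes are 10% of the 40 members, beside 9.98% of all genes. Groups of 3 arrays are too small for a test of single outlying arrays.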

How the results depend on the processing

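Of 748 values of single members under the alternatives, 703 kept their direction and side of the threshold, 28 lost a call, 14 gained one and 3 turned direction. The 3 were CDH2 in si-MBD5, not called under any of them: -0.0095 with the mean of probe sets, -0.0086 without si-Control replicate 2 and -0.0080 without si-MBD5 replicate 2, against 0.018; leaving out an array gave -0.0086 to 0.041. Epithelial members called in si-MBD5 numbered 1, and 3 with the mean of probe sets, where CLDN4 gained a call (-0.30, adjusted p = 4.39e-04); leaving out an array gave 1 to 3, with 2 without si-MBD5 replicate 1 and 3 without si-MBD5 replicate 3. Between si-BAP1 and si-MBD5, epithelial members called numbered 1, and 2 with the filter at the 60th percentile, with the mean of probe sets, without _x_at and _s_at probe sets or with the replicate block; leaving out an array gave 1 to 2. Member probe sets called between the knockdowns numbered 13, and 6 to 14 when an array was left out: 6 without si-MBD5 replicate 1, 7 without si-BAP1 replicate 2 and 8 without si-BAP1 replicate 1. COL5A1 in si-MBD5 was called from another probe set once the _x_at and _s_at types were removed (0.29, adjusted p = 0.00227). CLDN4 had no value under that setting. The causes were not tested.

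Quantile normalization gave 603 genes higher and 712 lower in si-BAP1 than in si-MBD5, against 716 and 524 without it, and the members' counts moved by less than 1.5 times. Deviations of arrays that share a replicate number correlated at -0.43 to 0.48 between groups, with 3 of 9 pairs over 0.1. For arrays with different numbers the correlations were -0.56 to 0.47, with 6 of 18 pairs over 0.1. The numbers were therefore not taken as pairs, and what some arrays of different groups share was not tested. With the replicate block 1491 genes were higher and 1360 lower in si-BAP1 than in si-Control, against 1536 and 1382. The 6 members below the filter have no usable fold change.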

Other observations

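Among the other matrix genes, 4 of 6 laminin chains tested fell in both knockdowns, and they were singled out after their values were seen. Across all genes, 11.1% were called lower in si-BAP1 and 8.99% in si-MBD5. LAMC1, the gamma chain common to most laminins, averaged 343 ± 12.7 in si-BAP1 and 451 ± 16.9 in si-MBD5, against 516 ± 5.10 in si-Control (SD, n = 3 each), with log2 fold changes of -0.57 (adjusted p = 6.25e-07) and -0.19 (adjusted p = 0.00660). LAMB2 had log2 fold changes of -0.27 in si-BAP1 and -0.38 in si-MBD5, LAMB1 -0.18 and -0.18, and LAMA5 -0.21 and -0.20, all called by limma over 12431 genes. Of the other laminin chains tested in that list, LAMA1 went the other way, with 0.26 (adjusted p = 0.00241) in si-BAP1, a call, and 0.13 (adjusted p = 0.110) in si-MBD5, and LAMA4 was not called (-0.0085 in si-BAP1 and 0.066 in si-MBD5). LAMB3, a chain of the laminin that anchors epithelia, was not called on its brightest probe set in either knockdown.

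Identical intensities recurred between arrays: 42.9% of the 12431 genes held the same value on at least 2 of the 9 arrays, and 112 genes on at least 5. Among the members 19 of 40 held such a value, and FN1 held it on 5 arrays. How these values came about was not tested.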
